A study of Mus musculus with 9 samples.

Results

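The genes described here encode the translation initiation factors and the proteins named with them. They were taken as every symbol of the deposited tables that begins with Eif followed by a digit, with the transcript that held the most reads standing for each symbol. Of 23992 symbols, 55 met this rule, and 53 of these were among the 10702 genes abundant enough to be tested. The rule uses the name and no measured value.

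Translation of most mRNAs begins when eIF4E binds the cap, eIF4G bridges the cap to the small ribosomal subunit through eIF3, and the helicase eIF4A opens the leader. The small subunit meanwhile carries the initiator tRNA brought by eIF2, which eIF2B recharges with GTP after each round. Kinases of the Eif2ak group slow this cycle by phosphorylating eIF2, and the Eif4ebp proteins withhold eIF4E until mTORC1 phosphorylates them. Regulatory T cells (Tregs) depend on IL-2, which in T cells acts through STAT5 and through the PI3K and mTORC1 pathway that feeds into initiation.

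The cells were Foxp3GFP+ Tregs from spleens of BALB/c mice, transduced with a human EGFR-tagged orthogonal IL-2 receptor beta chain (hEGFR-oIL-2Rβ). All of them had grown for 48 hours in 1000 IU/mL human IL-2 on CD3/CD28 beads, had been isolated magnetically by the tag, and had then spent a night without IL-2. One group received 2000000 IU/mL ortho IL-2, an engineered cytokine made for the engineered receptor. Another received 20000 IU/mL wild-type (WT) IL-2, and the third received no IL-2. Each state lasted 4 hours and was sampled in 3 libraries of bulk mRNA. Nothing in the labels tells if these 3 were separate cultures or mice, and the p-values measure only how far these samples spread, possibly for technical reasons. The dose of ortho IL-2 in IU/mL was 100 times that of WT IL-2, so the cytokines were given at unmatched doses.

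The libraries held 16581624 to 58182835 reads in genes, that is, counted in the 1 transcript kept per symbol. Reads outside genes are here the rest of the total behind RPKM. They include any reads found only in other transcripts of a gene. Reads outside genes made up 29.4 ± 3.64% of the total in the ortho IL-2 group, 31.7 ± 2.96% in the WT IL-2 group and 40.5 ± 2.43% without IL-2 (SD, n = 3 each), so this share moved with the treatment. Ortho IL-2 replicate 3 and WT IL-2 replicate 1 stood apart from the rest of their groups. Replicate pairs with either of them differed with a chi-square per degree of freedom of at least 24.2, against at most 7.76 in the other pairs. Markers of T cells and Tregs summed to 2337 to 2390 scaled RPKM (reads per kilobase and per 1e6 reads after TMM scaling) with ortho IL-2, 2377 to 2418 with WT IL-2 and 1764 to 1776 without IL-2. Il2ra, the highest of the 6 in the IL-2 libraries, carried the difference in the sum: with each cytokine Il2ra and Foxp3 were called higher and Cd4, Ctla4 and Ikzf2 lower, and the median log2 change of the list was -0.20 with ortho IL-2 and -0.17 with WT IL-2. Markers of B cells, of myeloid cells, of CD8 T and NK cells and of erythroid cells, 4 for each, summed to at most 6.79 per list in any library, and none of them was at 0 in every library. Among them the myeloid marker Itgam was called lower, at a log2 change of -0.62 with ortho IL-2 and -0.60 with WT IL-2 (edgeR adjusted p = 0.00418 and 0.00547). The part of these marker levels in the results was not tested. In bulk RNA, fewer cells of a type and less RNA per cell cannot be told apart.

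IL-2 in either form raised a set of initiation factor transcripts and lowered a smaller one, and Eif5a, Eif4a1, Eif2b3, Eif3b and Eif4g1 rose while the kinase transcripts Eif2ak1 and Eif2ak3 fell. With ortho IL-2 against no IL-2, 21 of the 53 tested members rose, 5 fell and 27 were not called at an edgeR adjusted p under 0.05. Members were thus called in 49.1% of cases, against 56.0% of all genes tested, and the rises covered 39.6% of members against 28.5% of all genes. The falls covered 9.43% of members against 27.4% of all genes. With WT IL-2 against no IL-2, 21 members rose, 4 fell and 28 were not called, which is 47.2% called against 47.9% of all genes tested. Here the rises covered 39.6% of members against 25.0% of all genes, and the falls 7.55% against 22.9%. The median log2 fold change of the members was 0.09 with ortho IL-2 and 0.12 with WT IL-2, beside 0.01 for all genes in both comparisons. Without ortho IL-2 replicate 3 and WT IL-2 replicate 1, 25 members rose and 8 fell with ortho IL-2, and 28 rose and 4 fell with WT IL-2, beside 59.0% of all genes called with ortho IL-2 and 53.5% with WT IL-2. The comparisons share the no IL-2 libraries, so they are not independent.

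The split between rises and falls depended on how libraries were scaled. On RPKM as deposited, without further scaling, the median of all genes itself moved to a log2 change of 0.29 with ortho IL-2 and 0.22 with WT IL-2, and members were called higher in 41 cases and lower in 2 with ortho IL-2, and in 37 and 2 with WT IL-2. On that scaling 53.3% of all genes were called higher and 8.84% lower with ortho IL-2, and 43.3% and 8.36% with WT IL-2. Changes below are relative to TMM scaling, in which the median of all genes lies near 0. When the share of reads outside genes entered the fit, 9 members were called with ortho IL-2, 7 higher and 2 lower, and 11 with WT IL-2, 9 higher and 2 lower. Of all genes tested, 14.7% were called with ortho IL-2 and 19.9% with WT IL-2 in that fit. The 9 were Eif5a, Eif4a1, Eif4a3, Eif4g1, Eif3b, Eif2b3, Eif1a, Eif2ak1 and Eif2ak3, and the 11 added Eif1b and Eif4e. These calls also held in every other alternative run, and the calls for all other members were lost with that term. The part of the reads outside genes in the results was not tested further.

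**Figure D1:**
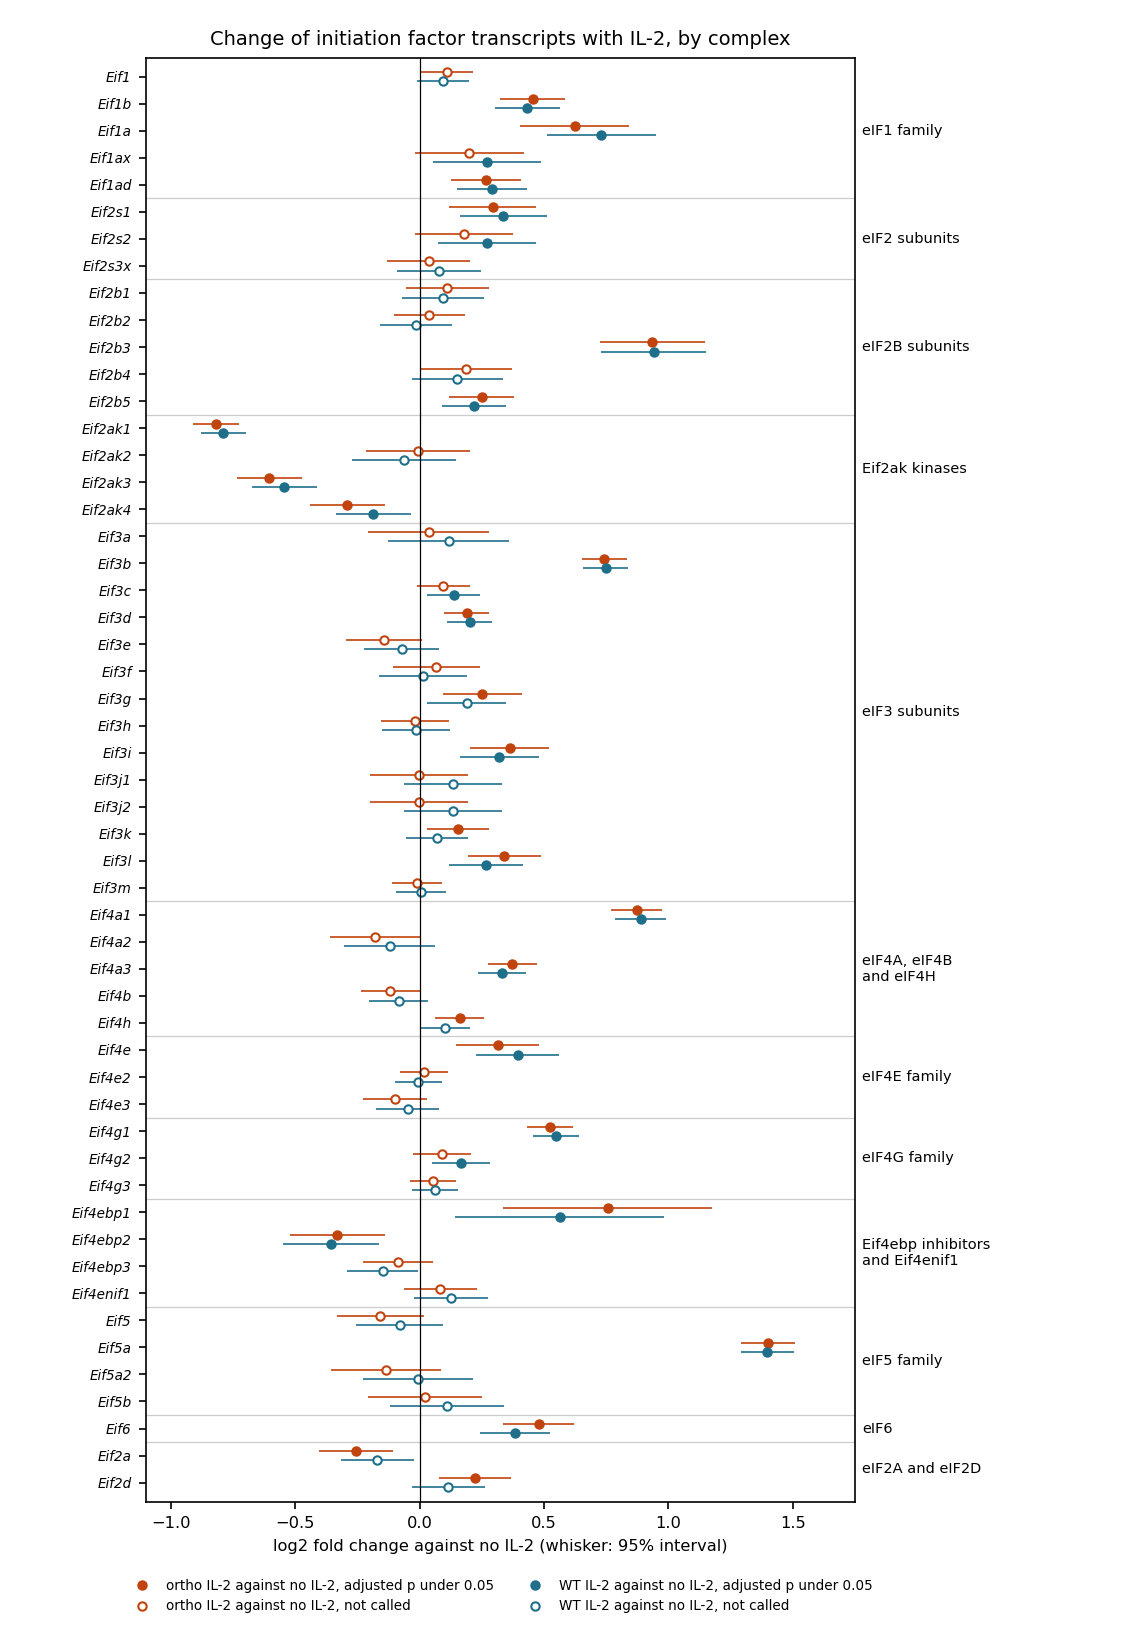
Log2 fold change (x axis) of each of the 53 tested members, grouped by complex, for ortho IL-2 against no IL-2 (red) and WT IL-2 against no IL-2 (blue-green), with 95% intervals from the edgeR fit; filled points passed an adjusted p of 0.05. Eif5a lies farthest to the right at 1.40 in both comparisons and Eif2ak1 farthest to the left, at -0.82 with ortho IL-2 and -0.79 with WT IL-2.

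Eif5a, which carries the hypusine modification and helps ribosomes through stretches that stall, such as runs of proline, changed most. Levels are given as scaled RPKM, that is reads per kilobase of transcript and per 1e6 reads in genes after TMM scaling, so that they can be set beside each other within and between genes. Eif5a (chr11:69916712-69921958, minus strand, GRCm38) stood at 282, 264 and 282 with ortho IL-2, at 280.1, 275 and 271 with WT IL-2, and at 100.4, 105 and 109 without IL-2. The 6 libraries given IL-2 were all above 260 and the 3 without it near 105, with no overlap. The log2 fold change was 1.40 ± 0.048 (SE) with ortho IL-2 and 1.40 ± 0.048 with WT IL-2, which is 2.64-fold with ortho IL-2 and 2.63-fold with WT IL-2 (edgeR adjusted p = 2.02e-08 and 2.00e-08).

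Its paralog Eif5a2 stayed low in every group and was not called. Its scaled RPKM was 7.996, 6.94 and 6.41 with ortho IL-2, 6.78, 8.45 and 8.11 with WT IL-2, and 7.61, 7.94 and 7.91 without IL-2, so the groups overlapped. The log2 difference was -0.14 (95% interval -0.36 to 0.08) with ortho IL-2 and -0.01 (-0.23 to 0.21) with WT IL-2, and it turned positive, 0.19 with ortho IL-2 and 0.21 with WT IL-2, and was called once GC content was corrected for (edgeR adjusted p = 0.0250 and 0.0166). Eif5, which triggers GTP hydrolysis on eIF2, averaged 116 ± 7.53 with ortho IL-2, 122 ± 13.3 with WT IL-2 and 129 ± 3.14 without IL-2. Eif5b, which joins the ribosomal subunits, averaged 24.0 ± 2.46 with ortho IL-2, 25.5 ± 3.71 with WT IL-2 and 23.6 ± 0.151 without IL-2. Neither was called, so 1 of the 4 genes of the eIF5 family rose in each comparison.

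Of the helicase genes, Eif4a1 and Eif4a3 rose and Eif4a2 did not. Eif4a1 (chr11:69666936-69672423, minus strand), the main eIF4A of dividing cells, stood at 260.0, 259 and 245 with ortho IL-2, at 246, 266 and 261 with WT IL-2, and at 139.8, 140.0 and 138 without IL-2. Every IL-2 library lay above every library without IL-2. The log2 fold change was 0.87 ± 0.046 with ortho IL-2 and 0.89 ± 0.046 with WT IL-2, or 1.83-fold and 1.85-fold (edgeR adjusted p = 2.73e-07 and 2.29e-07).

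Eif4a2, whose protein is a close relative of eIF4A1, was the more abundant of the pair in the libraries without IL-2. It stood at 196, 212 and 183 with ortho IL-2, at 179, 220.0 and 216 with WT IL-2, and at 229, 223 and 217 without IL-2. The ortho IL-2 libraries all lay below those without IL-2, while the WT IL-2 libraries overlapped them. Its log2 difference was -0.18 ± 0.082 with ortho IL-2 (edgeR adjusted p = 0.0872) and -0.12 ± 0.082 with WT IL-2 (edgeR adjusted p = 0.250), and with GC content corrected it was 0.093 with ortho IL-2, called as higher (edgeR adjusted p = 0.0158), and 0.060 with WT IL-2, not called. Without ortho IL-2 replicate 3 and WT IL-2 replicate 1, Eif4a2 was called with ortho IL-2 at a log2 difference of -0.13 (edgeR adjusted p = 0.0245), so its direction depended on the processing.

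Eif4a3, which sits in the exon junction complex on spliced mRNA, rose to 66.4 ± 0.974 with ortho IL-2 and 64.5 ± 2.16 with WT IL-2, against 51.3 ± 1.28 without IL-2, log2 fold changes of 0.37 with ortho IL-2 and 0.33 with WT IL-2. Eif4h, a cofactor of eIF4A, averaged 106 ± 3.71 with ortho IL-2, 102 ± 3.40 with WT IL-2 and 94.8 ± 1.49 without IL-2. It was called with ortho IL-2 only (log2 fold change 0.16, edgeR adjusted p = 0.0117), at -0.035 once GC content was corrected. Eif4b, a cofactor that S6 kinase phosphorylates, averaged 164 ± 7.65 with ortho IL-2, 168 ± 9.29 with WT IL-2 and 178 ± 1.87 without IL-2 and was not called. In this group of 5, therefore, 3 rose with ortho IL-2 and 2 with WT IL-2, and none fell.

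**Figure D2:**
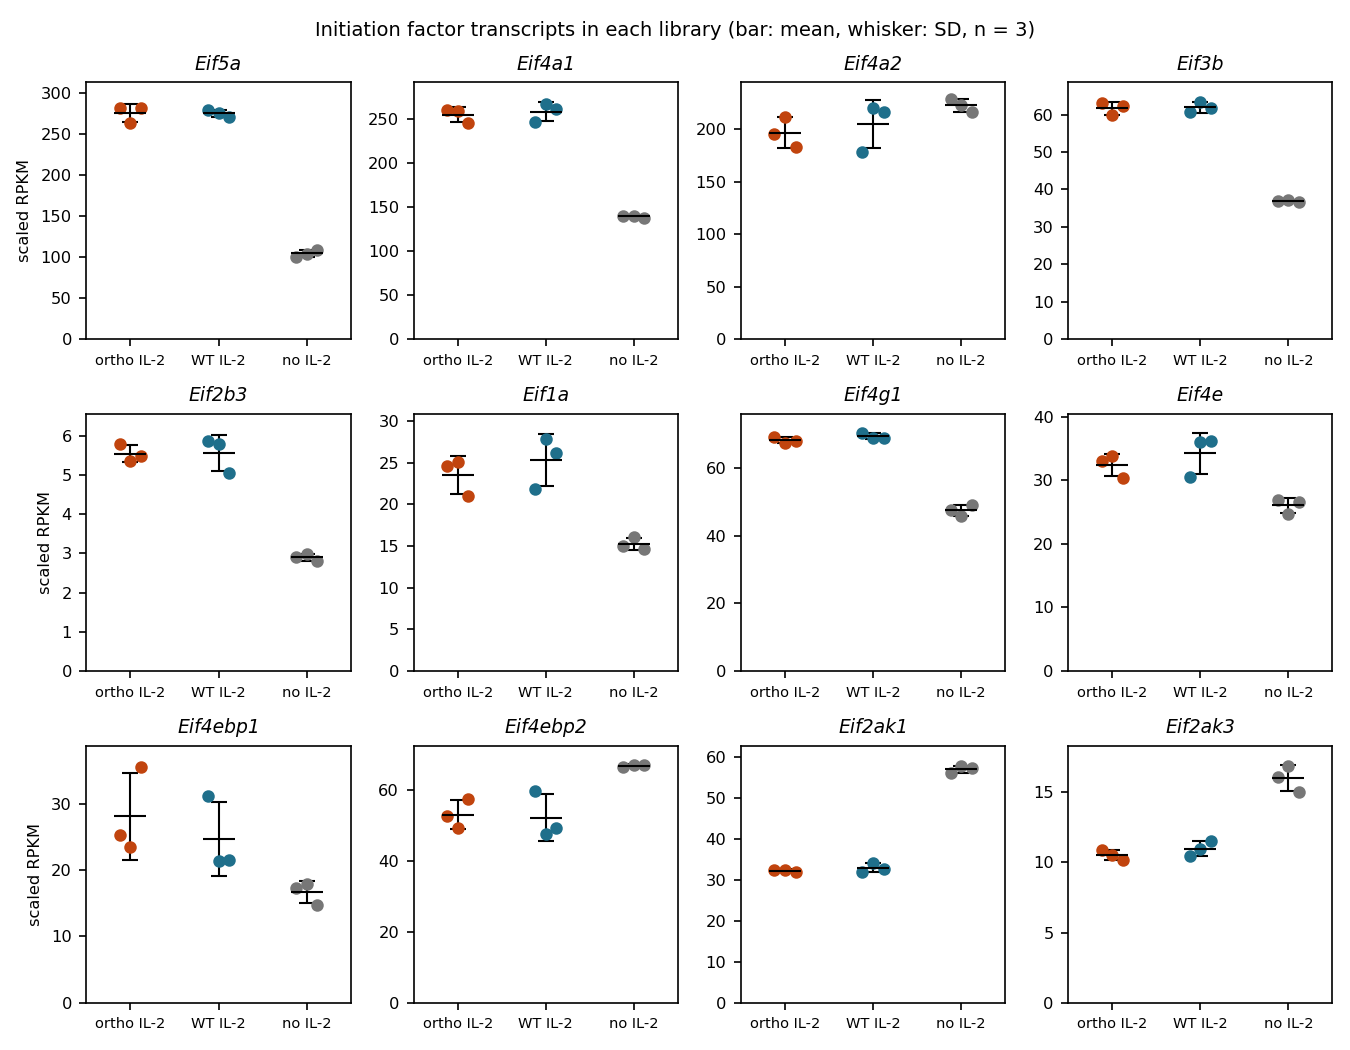
Scaled RPKM (y axis, from 0) of 12 members in each library, with ortho IL-2, WT IL-2 and no IL-2 from left to right; points are libraries, the bar is the mean and the whisker the SD (n = 3). Eif5a, Eif4a1, Eif3b, Eif2b3, Eif1a, Eif4g1, Eif4e and Eif4ebp1 are higher in all 6 IL-2 libraries, and Eif2ak1, Eif2ak3 and Eif4ebp2 are lower. Eif4a2 overlaps between WT IL-2 and no IL-2 and is lower in each ortho IL-2 library.

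Promoter windows of 3 members that rose, Eif5a, Eif4a1 and Eif4g1, are shown because each holds CACGTG, the E-box letters that MYC and MAX can bind, beside a window of Eif2ak3, a member that fell. Promoter sequence, 250 bases before each annotated start, came from RefSeq (build GRCm38.p6), which held 43 of the 55 members. Capitals mark the match to CACGTG in the Eif5a, Eif4a1 and Eif4g1 windows and to TTCNNNGAA, the letters STAT5 can bind, in the Eif2ak3 window. Each runs 5′ to 3′ on the strand of its gene and covers 60 bases. The Eif5a window is chr11:69921428-69921487 on the minus strand, inside the gene's span, with the match 74 bases before an annotated start. That of Eif4a1 is chr11:69672580-69672639 on the minus strand, with the match 189 bases before the start. That of Eif4g1 is chr16:20672646-20672705 on the plus strand, with the match 54 bases before the start, and that of Eif2ak3 is chr6:70844359-70844418 on the plus strand, with the match 129 bases before the start.
Eif5a: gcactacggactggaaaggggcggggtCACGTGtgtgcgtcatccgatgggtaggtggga
Eif4a1: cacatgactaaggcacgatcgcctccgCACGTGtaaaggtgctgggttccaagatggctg
Eif4g1: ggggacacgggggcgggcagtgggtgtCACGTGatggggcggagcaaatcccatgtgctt
Eif2ak3: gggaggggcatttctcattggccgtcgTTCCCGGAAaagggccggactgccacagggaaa

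Both strands were searched, and a gene counted if any of its annotated promoters held a match. CACGTG was present in the promoters of 9 of the 43 members (20.9%), against 6.86% of 27025 genes with a promoter and 10.4% of the 7923 of them that were tested. Among members with a promoter, it was present in 7 of the 16 that rose with ortho IL-2 (Eif1b, Eif3k, Eif4a1, Eif4e, Eif4g1, Eif4h and Eif5a), in 0 of the 5 that fell and in 2 of the 21 not called (Eif3f and Eif5a2). For WT IL-2 the counts were 5 of 15 that rose, 0 of 4 that fell and 4 of 23 not called. Shares among all genes that rose, fell or were not called were not computed, so the split is not shown to be particular to these members. TTCNNNGAA was present in 5 of the 43 members (11.6%), namely Eif2ak2, Eif2ak3, Eif3c, Eif3g and Eif4e, against 8.13% of genes with a promoter and 7.37% of those tested. With ortho IL-2 it was in 2 of the 16 that rose, 1 of the 5 that fell and 2 of the 21 not called. For WT IL-2 these counts were 2 of 15, 1 of 4 and 2 of 23. TGATGCAA, an ATF4-type element, was in 0 of the 43, in 0.918% of genes with a promoter and in 0.631% of those tested. These matches describe letters in the windows and were not tested.

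The scaffold gene Eif4g1 (chr16:20672720-20692883, plus strand) rose within the eIF4G family. It stood at 69.2, 67.4 and 68.0 with ortho IL-2, at 70.4, 68.8 and 68.8 with WT IL-2, and at 47.5, 45.6 and 49.0 without IL-2. The groups with and without IL-2 were well apart, at a log2 fold change of 0.52 ± 0.041 with ortho IL-2 and 0.55 ± 0.041 with WT IL-2 (edgeR adjusted p = 4.37e-06 and 3.28e-06). Eif4g2, whose protein lacks the eIF4E-binding site, was the most abundant of the family at 140.4, 143 and 135 with ortho IL-2, 137, 153 and 151 with WT IL-2, and 129.8, 133 and 130.0 without IL-2. It was called with WT IL-2 (log2 fold change 0.17, edgeR adjusted p = 0.0238) and not with ortho IL-2 (0.09, edgeR adjusted p = 0.164), and the WT IL-2 call was lost when any of 4 single libraries was left out. Eif4g3 averaged 35.1 ± 0.130, 35.3 ± 0.330 and 33.8 ± 1.43 with ortho IL-2, WT IL-2 and no IL-2, and was not called.

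Eif4e, the cap-binding factor, rose less. It stood at 33.0, 33.8 and 30.4 with ortho IL-2, at 30.5, 36.1 and 36.2 with WT IL-2, and at 26.9, 24.7 and 26.6 without IL-2, with no overlap between IL-2 and no IL-2. The log2 fold changes were 0.31 ± 0.075 with ortho IL-2 and 0.39 ± 0.075 with WT IL-2 (edgeR adjusted p = 0.00588 and 0.00178). Eif4e2, a cap-binding relative that represses translation, stood at 19.8, 20.7 and 19.6 with ortho IL-2, at 19.7, 19.8 and 19.6 with WT IL-2, and at 20.3, 19.5 and 19.4 without IL-2. Eif4e3 stood at 27.3, 27.8 and 26.7 with ortho IL-2, at 26.2, 28.9 and 29.6 with WT IL-2, and at 27.7, 29.7 and 30.2 without IL-2. Neither of these relatives was called. Eif4e1b had 2 to 9 reads in each library, too few to test.

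The inhibitors of eIF4E moved in opposite directions. Eif4ebp1 rose and was the most variable member, at 25.2, 23.5 and 35.5 with ortho IL-2, at 31.1, 21.3 and 21.5 with WT IL-2, and at 17.2, 17.9 and 14.8 without IL-2. The highest values in the IL-2 groups belonged to the libraries that stood apart, ortho IL-2 replicate 3 and WT IL-2 replicate 1, yet the lowest IL-2 value exceeded the highest without IL-2. The log2 fold change was 0.76 ± 0.188 with ortho IL-2 (edgeR adjusted p = 0.00727) and 0.56 ± 0.188 with WT IL-2 (edgeR adjusted p = 0.0324). Without both of those libraries it was 0.54 with ortho IL-2 and 0.35 with WT IL-2 (edgeR adjusted p = 0.000441 and 0.00702), with reads outside genes as a term it was 0.30 with ortho IL-2 and 0.21 with WT IL-2, no longer called, and the WT IL-2 call was also lost with a replicate block (edgeR adjusted p = 0.0532) and without WT IL-2 replicate 1 or any single no IL-2 library.

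Eif4ebp2 fell. It stood at 52.6, 49.1 and 57.3 with ortho IL-2, at 59.7, 47.6 and 49.2 with WT IL-2, and at 66.3, 67.1 and 67.0 without IL-2, so the libraries without IL-2 were all highest. The log2 change was -0.33 ± 0.086 with ortho IL-2 and -0.36 ± 0.086 with WT IL-2 (edgeR adjusted p = 0.00891 and 0.00693), and neither call held on RPKM as deposited. Eif4ebp3 stood at 15.7, 15.8 and 15.1 with ortho IL-2, at 15.3, 14.5 and 14.7 with WT IL-2, and at 15.8, 16.9 and 16.8 without IL-2, and was not called. Eif4enif1, which binds eIF4E and carries it into the nucleus, averaged 28.3 ± 1.49, 29.2 ± 1.66 and 26.8 ± 1.80 with ortho IL-2, WT IL-2 and no IL-2, and was not called.

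A ratio of RPKM inside a library does not depend on the scaling of libraries. For that reason 4 such ratios were set up, and the 6 IL-2 libraries were tested together against the 3 without IL-2. A ratio can still depend on GC content, and the ratios were not corrected for it. With GC content corrected, the ortho IL-2 log2 differences of the denominators Eif4a2 and Eif5a2 were 0.093 and 0.19. Eif4a1 to Eif4a2 was 1.30 ± 0.0642 with ortho IL-2 and 1.26 ± 0.0965 with WT IL-2, against 0.625 ± 0.0123 without IL-2. Eif5a to Eif5a2 was 39.1 ± 4.44 and 35.8 ± 4.82 with ortho IL-2 and WT IL-2, against 13.4 ± 0.358 without IL-2. In each of the 3 libraries without IL-2 Eif4a2 exceeded Eif4a1, and in all 6 with IL-2 the order was turned round.

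Eif4g1 to Eif4g2 was 0.489 ± 0.0157 with ortho IL-2 and 0.473 ± 0.0368 with WT IL-2, against 0.362 ± 0.0177 without IL-2. Eif4e to the summed Eif4ebp1, Eif4ebp2 and Eif4ebp3 was 0.339 ± 0.0519 and 0.381 ± 0.0812 with ortho IL-2 and WT IL-2, against 0.261 ± 0.0159 without IL-2, and the lowest IL-2 values were those of ortho IL-2 replicate 3 (0.281) and WT IL-2 replicate 1 (0.287). All 4 ratios were higher in every IL-2 library, by 2.05-fold for Eif4a1 to Eif4a2, 2.78-fold for Eif5a to Eif5a2, 1.33-fold for Eif4g1 to Eif4g2 and 1.36-fold for Eif4e to the Eif4ebp sum. Each gave a two-sided exact permutation p of 0.0238, the smallest that 6 libraries against 3 can give, and 0.0238 after Benjamini-Hochberg adjustment over the 4. The numerators Eif4a1, Eif5a, Eif4g1 and Eif4e were themselves higher in every IL-2 library. These p-values therefore largely repeat that separation and are not separate support for it.

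**Figure D3:**
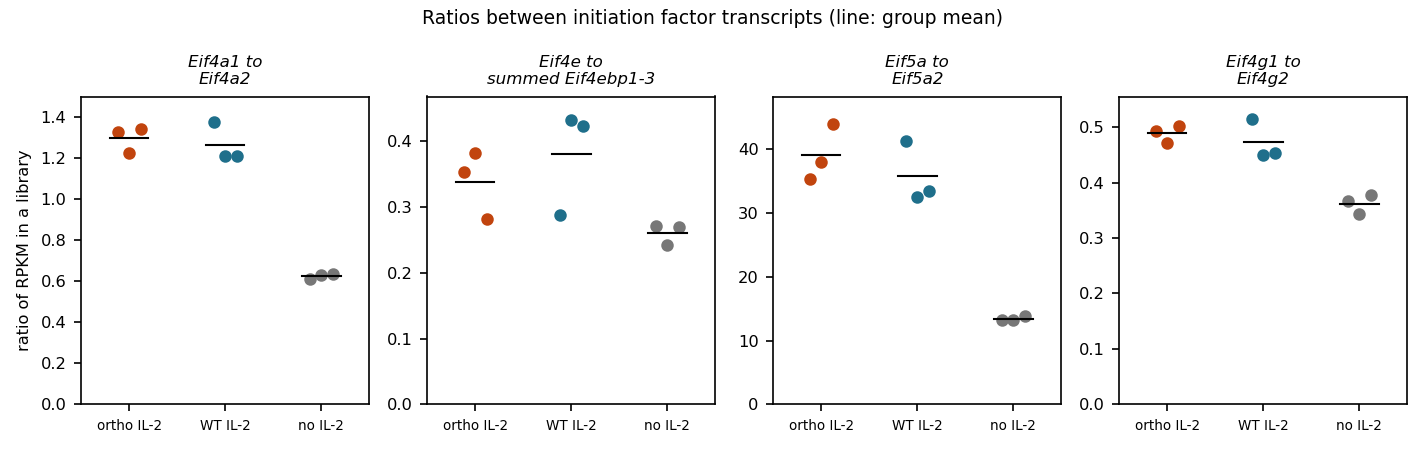
Ratio of deposited RPKM values within each library (y axis, from 0) for the 4 ratios tested, with ortho IL-2, WT IL-2 and no IL-2 from left to right; points are libraries and lines are group means. The mean Eif4a1 to Eif4a2 ratio is 1.30 with ortho IL-2, 1.26 with WT IL-2 and 0.625 without IL-2, and no ratio overlaps between IL-2 and no IL-2 libraries.

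Of the kinases that phosphorylate eIF2, 3 of 4 fell in each comparison, though the Eif2ak4 call was lost under several alternatives. Among all genes tested, 27.4% fell with ortho IL-2 and 22.9% with WT IL-2. Eif2ak1 (chr5:143817792-143902717, plus strand), the kinase that senses heme shortage, stood at 32.3, 32.5 and 32.0 with ortho IL-2, at 32.0, 34.1 and 32.7 with WT IL-2, and at 56.0, 57.7 and 57.2 without IL-2. The IL-2 libraries clustered near 32 and those without IL-2 near 57, and the log2 change was -0.82 ± 0.041 with ortho IL-2 and -0.79 ± 0.041 with WT IL-2 (edgeR adjusted p = 1.98e-07 and 2.34e-07). Its exons overlap those of Aimp2 on the other strand, which moved the opposite way, by a log2 fold change of 0.71 with ortho IL-2 and 0.64 with WT IL-2, and the use of strand in counting is not given in the sources used here.

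Eif2ak3, the kinase of the endoplasmic reticulum stress response known as PERK, stood at 10.9, 10.5 and 10.2 with ortho IL-2, at 10.5, 10.9 and 11.5 with WT IL-2, and at 16.1, 16.9 and 15.0 without IL-2. It fell by 0.60 with ortho IL-2 and 0.54 with WT IL-2 on the log2 scale with no overlap (edgeR adjusted p = 1.95e-05 and 4.07e-05). Eif2ak4, the amino acid sensor GCN2, stood at 3.87, 4.16 and 4.17 with ortho IL-2, at 4.45, 4.36 and 4.29 with WT IL-2, and at 4.88, 4.69 and 5.37 without IL-2. Its log2 change was -0.29 with ortho IL-2 (edgeR adjusted p = 0.00516) and -0.19 with WT IL-2 (edgeR adjusted p = 0.0438), and on RPKM as deposited it was no longer called with ortho IL-2 and was 0.028 with WT IL-2. The WT IL-2 call was also lost with a replicate block (edgeR adjusted p = 0.0702) and without any of 5 single libraries. Eif2ak2, the kinase activated by double-stranded RNA, averaged 8.74 ± 1.04, 8.38 ± 0.781 and 8.75 ± 0.0564 with ortho IL-2, WT IL-2 and no IL-2, and was not called. Summed over the 4 kinases, scaled RPKM was 55.6 ± 1.47 with ortho IL-2, 56.6 ± 1.99 with WT IL-2 and 86.7 ± 1.27 without IL-2, and most of that difference came from Eif2ak1.

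Among the subunits of eIF2, the target of these kinases, 1 of 3 tested rose with ortho IL-2 and 2 with WT IL-2, and among those of eIF2B, its exchange factor, Eif2b3 and Eif2b5 rose. Eif2s1, the eIF2 alpha subunit that the kinases phosphorylate, stood at 37.7, 39.1 and 35.3 with ortho IL-2, at 33.5, 42.1 and 39.9 with WT IL-2, and at 30.6, 30.0 and 30.7 without IL-2, log2 fold changes of 0.29 with ortho IL-2 and 0.34 with WT IL-2 (edgeR adjusted p = 0.0106 and 0.00588). Eif2s2, the beta subunit, averaged 74.8 ± 5.30 with ortho IL-2, 79.6 ± 10.3 with WT IL-2 and 66.1 ± 1.97 without IL-2, and was called with WT IL-2 only (edgeR adjusted p = 0.0299), a call lost without any of 5 single libraries. Eif2s3x, the X-linked gamma subunit and the most abundant of the complex, stood at 94.7, 102 and 87.2 with ortho IL-2, at 87.5, 105 and 99.3 with WT IL-2, and at 91.8, 94.8 and 90.2 without IL-2, with overlap and no call. Eif2s3y, its Y-linked counterpart, had 0 or 1 read in each library and was not tested.

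Eif2b3 (chr4:117019399-117086852, plus strand), the gamma subunit of the exchange factor, stood at 5.78, 5.36 and 5.48 with ortho IL-2, at 5.87, 5.79 and 5.04 with WT IL-2, and at 2.90, 2.98 and 2.80 without IL-2. The groups did not overlap and the log2 fold change was 0.93 ± 0.0945 with ortho IL-2 and 0.94 ± 0.0945 with WT IL-2, or 1.91-fold and 1.92-fold (edgeR adjusted p = 2.64e-05 and 2.56e-05). Its level depends on the transcript taken, 1549 or 3754 bases long. On a scaling slightly different from that of the values above, the longer one gave 1.17 to 2.47 over the libraries and the shorter one 2.76 to 5.96. Eif2b5, the catalytic subunit, rose to 21.7 ± 1.43 with ortho IL-2 and 21.3 ± 0.807 with WT IL-2, against 18.3 ± 0.365 without IL-2. Eif2b2, the most abundant subunit, stood at 22.3, 22.8 and 24.4 with ortho IL-2, at 23.8, 21.6 and 21.6 with WT IL-2, and at 21.8, 23.7 and 22.2 without IL-2, and was not called. Eif2b1 and Eif2b4 were not called either, at log2 differences of 0.11 and 0.19 with ortho IL-2 and 0.09 and 0.15 with WT IL-2, so 2 of the 5 subunits rose in each comparison.

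The eIF3 complex, which binds the small subunit and recruits the mRNA, did not move as a unit. Of its 14 genes, 6 rose and none fell with ortho IL-2 (Eif3b, Eif3d, Eif3g, Eif3i, Eif3k and Eif3l), and 5 rose and none fell with WT IL-2 (Eif3b, Eif3c, Eif3d, Eif3i and Eif3l). These rises covered 42.9% of the 14 with ortho IL-2 and 35.7% with WT IL-2, beside 28.5% and 25.0% of all genes tested. Eif3b (chr5:140419305-140443358, plus strand), a scaffold subunit, stood at 63.1, 59.8 and 62.2 with ortho IL-2, at 60.6, 63.4 and 61.8 with WT IL-2, and at 36.8, 37.1 and 36.7 without IL-2. It rose 1.67-fold with ortho IL-2 and 1.68-fold with WT IL-2, log2 fold changes of 0.74 ± 0.041 with ortho IL-2 and 0.75 ± 0.041 with WT IL-2 with no overlap (edgeR adjusted p = 3.54e-07 and 3.22e-07).

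The other eIF3 calls were smaller. Eif3i and Eif3g, whose proteins bind Eif3b, had log2 fold changes of 0.36 and 0.25 with ortho IL-2 and of 0.32 and 0.19 with WT IL-2, where Eif3g narrowly missed the threshold (edgeR adjusted p = 0.0511). The Eif3g call with ortho IL-2 was lost without ortho IL-2 replicate 1 and with GC content corrected (0.043). Eif3l had 0.34 with ortho IL-2 and 0.27 with WT IL-2. Eif3d, which in human cells can bind caps itself, had 0.19 with ortho IL-2 and 0.20 with WT IL-2, and with GC content corrected 0.028 with ortho IL-2, no longer called, and 0.093 with WT IL-2. Eif3k was called with ortho IL-2 (0.15, edgeR adjusted p = 0.0398) although its groups overlapped, and the call was lost with a replicate block (edgeR adjusted p = 0.0730), with GC content corrected (0.013) and without any of 4 single libraries. Eif3c was called with WT IL-2 (0.14, edgeR adjusted p = 0.0397), a call lost with a replicate block (edgeR adjusted p = 0.0501) and without any of 5 single libraries.

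Eif3h, the most abundant subunit on average, stood at 243, 242 and 269.6 with ortho IL-2, at 271, 248 and 238 with WT IL-2, and at 251, 262 and 252 without IL-2, with overlap and no call. Eif3a, Eif3e, Eif3f and Eif3m were not called in either comparison, with log2 differences of -0.14 to 0.07 with ortho IL-2 and -0.07 to 0.12 with WT IL-2. Eif3j1 and Eif3j2 have the same read count in all 9 libraries and share a near-identical stretch of 2379 bases, so they give a single value that cannot be assigned to either. That value was 35.9, 39.7 and 33.4 for Eif3j1 with ortho IL-2, 34.6, 43.0 and 42.3 with WT IL-2, and 35.6, 36.4 and 37.0 without IL-2, and it was not called.

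Measures of how far the subunits' levels lay apart differed in what they showed. Eif3b was at 53.1 ± 3.08% of the median subunit with ortho IL-2 and 54.5 ± 0.738% with WT IL-2, against 33.3 ± 1.22% without IL-2. The coefficient of variation over the 13 distinct subunits was 61.8 ± 2.43% with ortho IL-2, 62.6 ± 1.69% with WT IL-2 and 70.7 ± 0.344% without IL-2. The highest subunit over the lowest was 7.04 ± 0.939 with ortho IL-2, 6.98 ± 0.816 with WT IL-2 and 7.59 ± 0.142 without IL-2, and there ortho IL-2 replicate 3 (8.08) and WT IL-2 replicate 1 (7.85) exceeded every library without IL-2. The summed level of the complex was 1633 ± 25.5 with ortho IL-2, 1642 ± 35.9 with WT IL-2 and 1562 ± 46.1 without IL-2. These values were not tested.

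**Figure D4:**
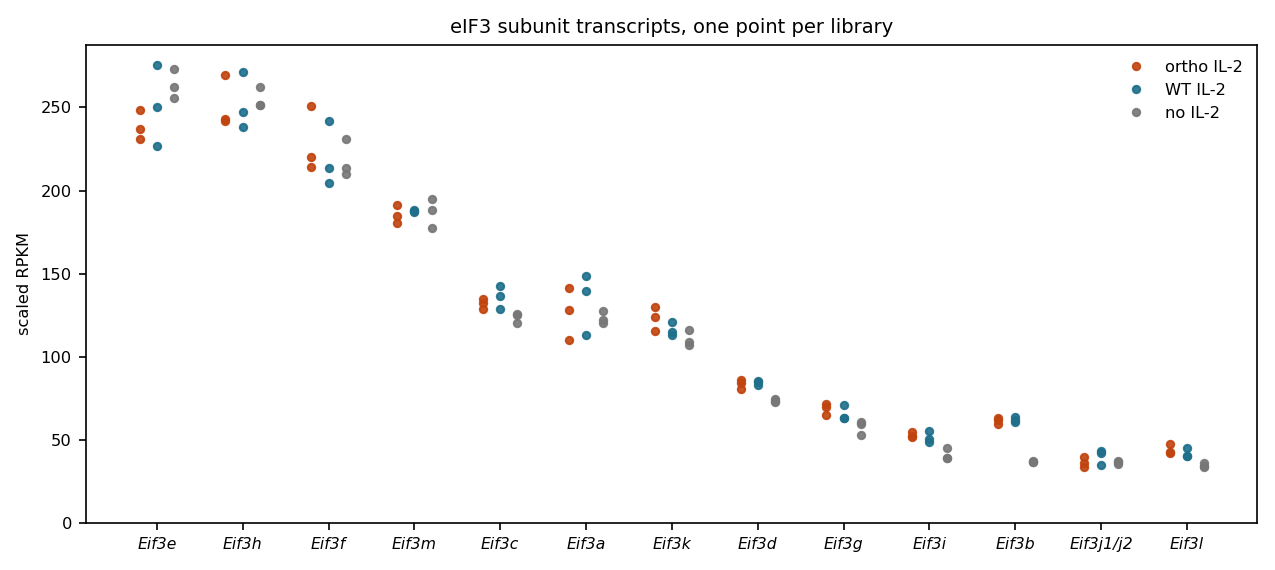
Scaled RPKM (y axis, from 0) of the 13 distinct eIF3 subunit transcripts in each library, ordered by level without IL-2, with ortho IL-2 (red), WT IL-2 (blue-green) and no IL-2 (grey) from left to right at each subunit. Eif3b lies between 59.8 and 63.4 with IL-2 and between 36.7 and 37.1 without it. Eif3h overlaps between IL-2 and no IL-2, and Eif3e overlaps between WT IL-2 and no IL-2. With ortho IL-2, 1 eIF3 gene lies wholly below no IL-2, and with WT IL-2 0 do.

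In the eIF1 family, whose members guide scanning and start codon choice, 3 of 5 genes rose with ortho IL-2 (Eif1b, Eif1a and Eif1ad) and 4 with WT IL-2 (the same and Eif1ax). Among all genes tested, 28.5% rose with ortho IL-2 and 25.0% with WT IL-2. Eif1 stood at 340.1, 361 and 377 with ortho IL-2, at 358, 354 and 353 with WT IL-2, and at 334, 342 and 323 without IL-2, and was not called (log2 difference 0.11 with ortho IL-2 and 0.09 with WT IL-2). Eif1b, a close paralog of Eif1, stood at 44.0, 43.0 and 43.8 with ortho IL-2, at 44.5, 42.3 and 42.1 with WT IL-2, and at 30.7, 34.2 and 30.5 without IL-2. It rose with no overlap, by log2 fold changes of 0.45 with ortho IL-2 and 0.43 with WT IL-2 (edgeR adjusted p = 0.000134 and 0.000199).

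Eif1a, which encodes an eIF1A protein, stood at 24.6, 25.1 and 21.0 with ortho IL-2, at 21.9, 27.9 and 26.2 with WT IL-2, and at 15.1, 16.0 and 14.7 without IL-2. The groups with and without IL-2 did not overlap, and the log2 fold change was 0.62 ± 0.098 with ortho IL-2 and 0.73 ± 0.098 with WT IL-2 (edgeR adjusted p = 0.000498 and 0.000191). Eif1ax, its X-linked counterpart, stood at 50.3, 59.3 and 46.0 with ortho IL-2, at 49.6, 58.3 and 55.1 with WT IL-2, and at 45.7, 47.2 and 41.9 without IL-2, called with WT IL-2 only (edgeR adjusted p = 0.0425), a call lost without any of 5 single libraries. Eif1ad, named for an eIF1A-like domain, rose to 13.3 ± 0.678 with ortho IL-2 and 13.6 ± 0.763 with WT IL-2, against 11.1 ± 0.233 without IL-2. Its exons overlap Banf1 on the other strand, which rose too, by 0.52 with ortho IL-2 and 0.45 with WT IL-2 on the log2 scale.

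Of the remaining members, Eif6, which keeps the large ribosomal subunit from joining too early, stood at 26.8, 27.2 and 27.5 with ortho IL-2, at 27.8, 24.6 and 24.0 with WT IL-2, and at 19.8, 19.0 and 19.8 without IL-2. It rose by log2 fold changes of 0.48 with ortho IL-2 and 0.38 with WT IL-2 with no overlap (edgeR adjusted p = 0.000160 and 0.000731). Eif2a, which can deliver the initiator tRNA without eIF2, stood at 35.0, 37.1 and 34.1 with ortho IL-2, at 33.8, 39.8 and 39.1 with WT IL-2, and at 41.5, 43.7 and 41.5 without IL-2. Its log2 change was -0.26 with ortho IL-2 (edgeR adjusted p = 0.00844), though 0.020 on RPKM as deposited and no longer called with GC content corrected, and -0.17 with WT IL-2, which was not called (edgeR adjusted p = 0.0557). Its exons overlap Serp1 on the other strand, whose log2 change was -0.51 with ortho IL-2 and -0.44 with WT IL-2. Eif2d, a factor for release of the tRNA during ribosome recycling, averaged 22.4 ± 1.29 with ortho IL-2, 20.8 ± 1.43 with WT IL-2 and 19.2 ± 0.387 without IL-2, and was called with ortho IL-2 only (edgeR adjusted p = 0.0159), a call lost without either of 2 single libraries.

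The groups did not overlap in 33 of the 53 tested members for ortho IL-2 against no IL-2, 23 higher and 10 lower, against 66.1% of all genes tested, 33.9% higher and 32.2% lower. For WT IL-2 against no IL-2 the count was 31, 24 higher and 7 lower, against 58.8% of all genes, 30.3% higher and 28.5% lower. Together the members took 1.02 ± 0.0111% of reads in genes with ortho IL-2, 1.03 ± 0.0320% with WT IL-2 and 0.924 ± 0.0117% without IL-2. Of the 55 members, 16 share exonic positions with another annotated gene and 22 hold a stretch of at least 100 bases that is at least 98% identical to another gene, among them Eif5a, Eif4a1, Eif4a2, Eif4e, Eif2ak1 and Eif2s3x, so their values are uncertain to that extent. The 2 counts are not separate. For Eif2ak1, Eif2ak2, Eif2ak3, Eif1ad, Eif2b4, Eif3d, Eif4e3, Eif4ebp3, Eif5b and Eif6 the only such gene was one whose exons overlap theirs. It was not a copy elsewhere. Among the 37 tested members with no such exon overlap, 16 rose and 2 fell with ortho IL-2, and 17 rose and 2 fell with WT IL-2. That is 48.6% called with ortho IL-2 and 51.4% with WT IL-2, beside 56.0% and 47.9% of all genes tested.

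Between ortho IL-2 and WT IL-2, at their different doses, no tested member was called by edgeR (0 of 53), and 0 had an unadjusted p under 0.05. DESeq2 and limma also called 0. Without WT IL-2 replicate 1, 16 members (30.2%) had an unadjusted p under 0.05, beside 24.4% of all genes, and 0 were called. Over all 10702 genes edgeR called 0 (0.0%), with 149 at an unadjusted p under 0.05, which is 1.39%. The members' log2 differences ran from -0.14 for Eif3j1 to 0.19 for Eif4ebp1, and 32 were below 0 and 21 above. The 95% intervals stayed within 0.5 of 0 on the log2 scale for 52 members, with a median half-width of 0.146. The exception was Eif4ebp1, whose interval reached 0.60. For Eif5a the difference was 0.00 (-0.10 to 0.11), for Eif4a1 -0.02 (-0.12 to 0.08) and for Eif2ak1 -0.03 (-0.12 to 0.06).

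Eif2ak4 was the only member whose ortho IL-2 and WT IL-2 libraries did not overlap, being lower with ortho IL-2, at a log2 difference of -0.10 (-0.25 to 0.05). In this comparison 4.65% of all genes had no overlap, 2.42% higher and 2.23% lower with ortho IL-2. An interval that includes 0 does not show that the cytokines act alike.

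**Figure D5:**
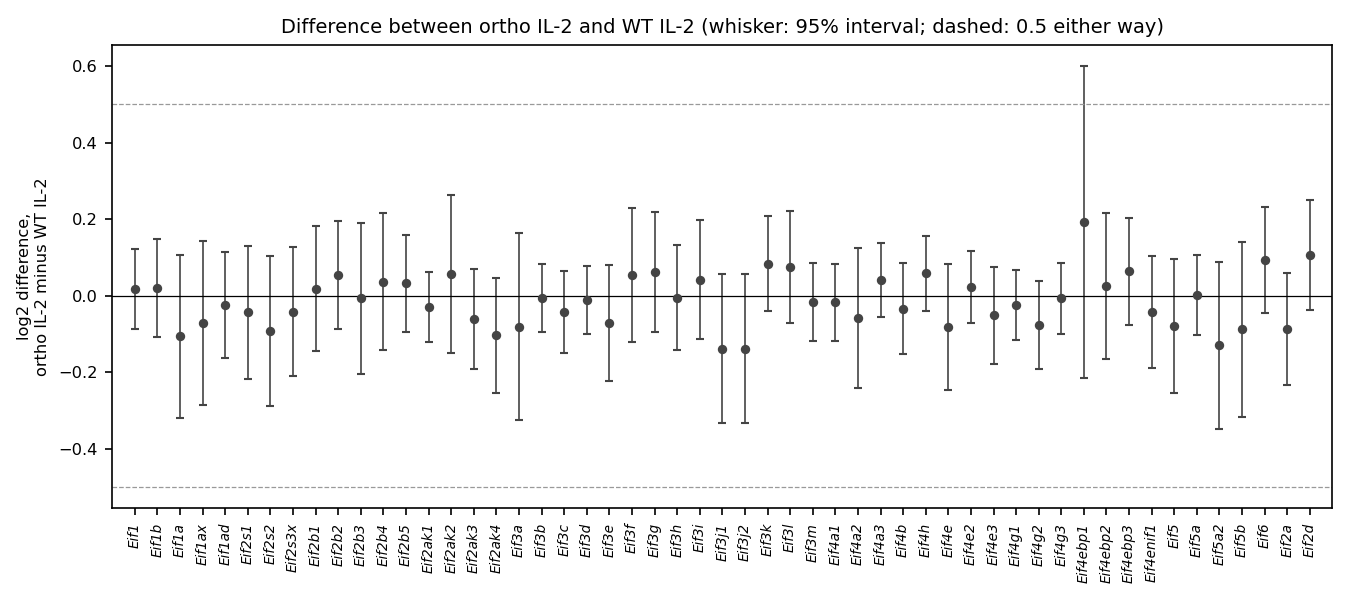
Log2 difference between ortho IL-2 and WT IL-2 (y axis, ortho IL-2 minus WT IL-2) for each of the 53 tested members, in the order of the complexes, with 95% intervals and dashed lines at 0.5 either way. Each interval includes 0, and only that of Eif4ebp1 crosses a dashed line, reaching 0.60.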

How the data were processed

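Per the labels, bulk mRNA of 9 libraries was sequenced. The authors deposited, per transcript, a count of reads and its RPKM (reads per kilobase and per 1e6 reads), per the file headers. The submitters' processing notes name Bowtie2, TopHat2, SAMtools 0.1.8, bedtools 2.25.0, edgeR and build mm10. The tool for each step, the counter, the annotation and any strand setting were not given in the sources used here.

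From the deposited counts, the transcript with the most reads was kept per symbol, and genes reaching an RPKM of 1 in 3 or more of 9 libraries were tested (10702). edgeR 4.0.16 (R 4.3.3) fitted its quasi-likelihood test to all 3 groups after TMM scaling, with Benjamini-Hochberg adjustment over all genes tested and a threshold of 0.05. The fit was tested on simulated data. Alternatives used DESeq2 1.42.0, limma 3.58.1 with pseudocounts of 1 and 0.1, other scalings and filters, GC offsets, reads outside genes as a term, a replicate block and omitted libraries. Ratios were tested with SciPy 1.17.1. Exon overlap came from GENCODE vM21 and near-identical stretches from blastn 2.17.0.

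The members and lists were chosen with earlier results of these data known. Every member is named. Values in every library are given for the member with the largest mean change and the member with the highest RPKM in each class, and for paralog pairs.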

Additional observations from a re-analysis of the deposited data

How the results depend on the processing

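Of 3021 values of members under alternatives, 2715 kept their side of the threshold, 169 became called in the same direction and 97 lost a call. A further 40 changed sign and were called in the main fit or in the alternative. Values called in neither fit are among the 2715 whatever their sign, so changes of sign among them are not counted. Counts of called members moved by over 1.5 times under 4 alternatives. With ortho IL-2 they were 43 on RPKM as deposited, 42 with limma at either pseudocount and 9 with reads outside genes as a term, and with WT IL-2 they were 39, 39 and 11 under the same alternatives. Of all genes, 62.2%, 60.9% and 14.7% were called with ortho IL-2 and 51.6%, 49.8% and 19.9% with WT IL-2, in the same order. Against WT IL-2, ortho IL-2 gave 0 called members throughout. Without ortho IL-2 replicate 3 and WT IL-2 replicate 1, an alternative chosen after seeing the data, 33 members were called with ortho IL-2 and 32 with WT IL-2. The shares of all genes called there were 59.0% and 53.5%. Leaving out single libraries gave 24 to 27 called members with ortho IL-2, 19 to 28 with WT IL-2 and 0 to 0 between the cytokines. These fits called 44.3% to 54.3% of all genes with ortho IL-2 and 38.0% to 45.7% with WT IL-2.

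The log2 ratios under single omissions were 1.01 to 1.05 for Eif4a1 to Eif4a2, 0.39 to 0.51 for Eif4e to the Eif4ebp sum, 1.43 to 1.51 for Eif5a to Eif5a2 and 0.37 to 0.44 for Eif4g1 to Eif4g2. Without a no IL-2 library the exact permutation p was 0.0714, the smallest that 6 against 2 allows.

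Deviations from the group mean in libraries with the same number had correlations of -0.659 to 0.439, over 0.1 in 3 of 9 pairs. With 3 libraries per group, and with ortho IL-2 replicate 3 and WT IL-2 replicate 1 standing apart, this cannot decide if the numbers pair the samples. With the replicate block, 25 members were called with ortho IL-2, 24 with WT IL-2 and 0 between the cytokines, beside 52.8%, 44.7% and 0.0% of all genes. GC offsets gave 37 (69.8%) with ortho IL-2 and 33 (62.3%) with WT IL-2, beside 59.9% and 57.4% of all genes. Together with the replicate block they gave 36 (67.9%) and 32 (60.4%), beside 58.2% and 55.7%.

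Among values called in the main fit or in the alternative, signs changed as follows, and the cause was not tested. On RPKM as deposited, with limma at pseudocount 1 and at 0.1, values with ortho IL-2 were 0.020, 0.019 and 0.020 for Eif2a, 0.27, 0.23 and 0.26 for Eif2ak2, 0.27, 0.26 and 0.27 for Eif3j1, Eif3j2 and Eif3m, and 0.26 on RPKM as deposited for Eif3h. Values with WT IL-2 were 0.028, 0.019 and 0.025 for Eif2ak4 and 0.21, 0.19 and 0.21 for Eif4e2. With GC offsets, with or without the block, values with ortho IL-2 were 0.16 for Eif2ak2, -0.14 for Eif2b2, 0.20 for Eif3j1, 0.27 for Eif3j2, 0.14 for Eif3m, 0.093 for Eif4a2 (0.093 with the block), -0.035 for Eif4h (-0.034 with the block) and 0.19 for Eif5a2, and with WT IL-2 0.21 for Eif5a2. The lowest read count of any tested member in any library was 71, which limits precision there.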

Other observations

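Of 45 other genes of the translation pathway, 44 were tested. With ortho IL-2 against no IL-2, 16 rose, 9 fell and 19 were not called, so 56.8% were called beside 56.0% of all genes. With WT IL-2 against no IL-2, 14 rose, 7 fell and 23 were not called, 47.7% beside 47.9% of all genes. Of 25 tested regulators of initiation, 8 rose and 7 fell with ortho IL-2, and 7 rose and 5 fell with WT IL-2. Larp1, which binds mRNAs with terminal oligopyrimidine tracts, rose by log2 fold changes of 0.86 with ortho IL-2 and 0.90 with WT IL-2 (edgeR adjusted p = 2.48e-07 and 1.79e-07). Paip2b, an inhibitor of the poly(A)-binding protein, had log2 changes of -0.45 with ortho IL-2 and -0.43 with WT IL-2 (edgeR adjusted p = 5.41e-05 and 7.15e-05). Of 6 genes of mTORC1 and S6 kinase, Mlst8, a subunit of mTORC1, rose by 0.94 with ortho IL-2 and 0.64 with WT IL-2 (edgeR adjusted p = 4.06e-05 and 0.000590). Of 8 elongation genes, 5 rose in each comparison, among them Eef2k, the kinase of elongation factor 2, by 0.69 with ortho IL-2 and 0.63 with WT IL-2. Both genes of mitochondrial initiation, Mtif2 and Mtif3, fell in each comparison, Mtif3 by 0.32 with ortho IL-2 and 0.37 with WT IL-2 on the log2 scale.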
